A study of Mus musculus with 2 samples.

Results

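The metalloproteinase genes and the genes of their tissue inhibitors were compared between areas of mouse liver with and without globules of mutant alpha-1-antitrypsin. They were chosen by name: a probe set belonged when the platform annotation gave it exactly 1 symbol, and that symbol was Mmp, Timp, Adam, Adamts or Adamtsl followed by a digit. This gave 80 probe sets, each for a different gene, out of 30604 probe sets that name 1 symbol and 30145 genes. They divide into 22 Mmp, 4 Timp, 31 Adam, 18 Adamts and 5 Adamtsl genes.

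The globule-containing and the globule-free group are 1 array each, hybridised with the pooled RNA of 2 mice, and are called below areas with and without globules. All mice were PiZ, a C57BL/6 strain transgenic for the human mutant gene (ATZ) under its own human promoter, untreated, on standard chow and aged 3 months. No group without the transgene was analysed here, so both groups carry it. Sections were stained with Cresyl Violet and the areas were cut out by laser according to whether globules were seen. Whether the same mice gave both pools is unstated in the labels. With 1 array per group there is no replicate check, no test was run, and every difference below describes these 2 arrays.

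Matrix metalloproteinases (MMPs) are zinc endopeptidases that cut collagens, elastin, laminins and other matrix proteins, and the TIMPs are small secreted proteins that bind and block their active site. ADAM proteins sit in the membrane and release the outer domains of growth factors, cytokines and adhesion molecules, while ADAMTS proteins are secreted and cut proteoglycans, procollagens and von Willebrand factor. ADAMTS-like proteins share the accessory domains of ADAMTS but have no protease domain. In liver, stellate cells and macrophages are well-known sources of MMPs and TIMPs.

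Signals are log2 values per probe set as deposited, and a difference is the globule-containing minus the globule-free value. The background level of each array was the 95th percentile of its 1719 olfactory and vomeronasal receptor probe sets, genes of sensory neurons. It was 4.85 on the globule-containing and 5.04 on the globule-free array. Of the 80 genes, 24 lay above background on at least 1 array, of which 14 did so on both, 10 on the globule-containing array alone and 0 on the globule-free array alone. The other 56 lay at or below background on both. Among all 30145 genes, 49.2% were above background on at least 1 array and 42.8% on both, with 1468 above it on the globule-containing array alone and 460 on the globule-free array alone. By family, 6 of 22 Mmp, 3 of 4 Timp, 7 of 31 Adam, 6 of 18 Adamts and 2 of 5 Adamtsl genes were above background on at least 1 array.

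For counts of differences, a gene was kept when the mean of both arrays exceeded 4.94, the mean of both background levels. The filter treats both directions alike, but a gene dim on 1 array can pass through the other value, which then fixes its direction. Mmp13, Mmp2, Timp1, Adam8 and Adamtsl2 passed in this way, through their globule-containing value. The filter kept 20 of the 80 genes. Of these, 8 were higher by 2-fold or more in the areas with globules, where 6.83% of all genes kept by the same filter were, and 0 were lower by as much, where 5.55% were. With a dim value raised to its array's background, 7 were higher (6.46% of all genes) and 0 lower (5.49%), Timp1 being the gene lost. The 8 were Mmp12, Mmp13, Mmp14, Mmp2, Timp2, Timp1, Adamts5 and Adam10. The median difference over the 20 genes was 0.63, against 0.06 over all 13903 genes kept, and 17 of the 20 differences were positive, as were 55.0% of those of all genes kept. Over the 14 genes above background on both arrays, 5 were higher by 2-fold or more and 0 lower, beside 6.16% and 5.59% of all genes of that class, and the median was 0.51. Of these 14 differences 12 were positive, as were 6951 of the 12917 over all genes of that class. Without any filter the median over all 80 genes was -0.020, with 56 of them at background on both arrays. The genes just above the filter were Adam8, Adamts7 and Adamtsl2, with means of 4.96, 4.96 and 4.97, and those just below were Mmp7, Adamts10 and Adam32, with means of 4.84, 4.81 and 4.78.

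**Figure D1:**
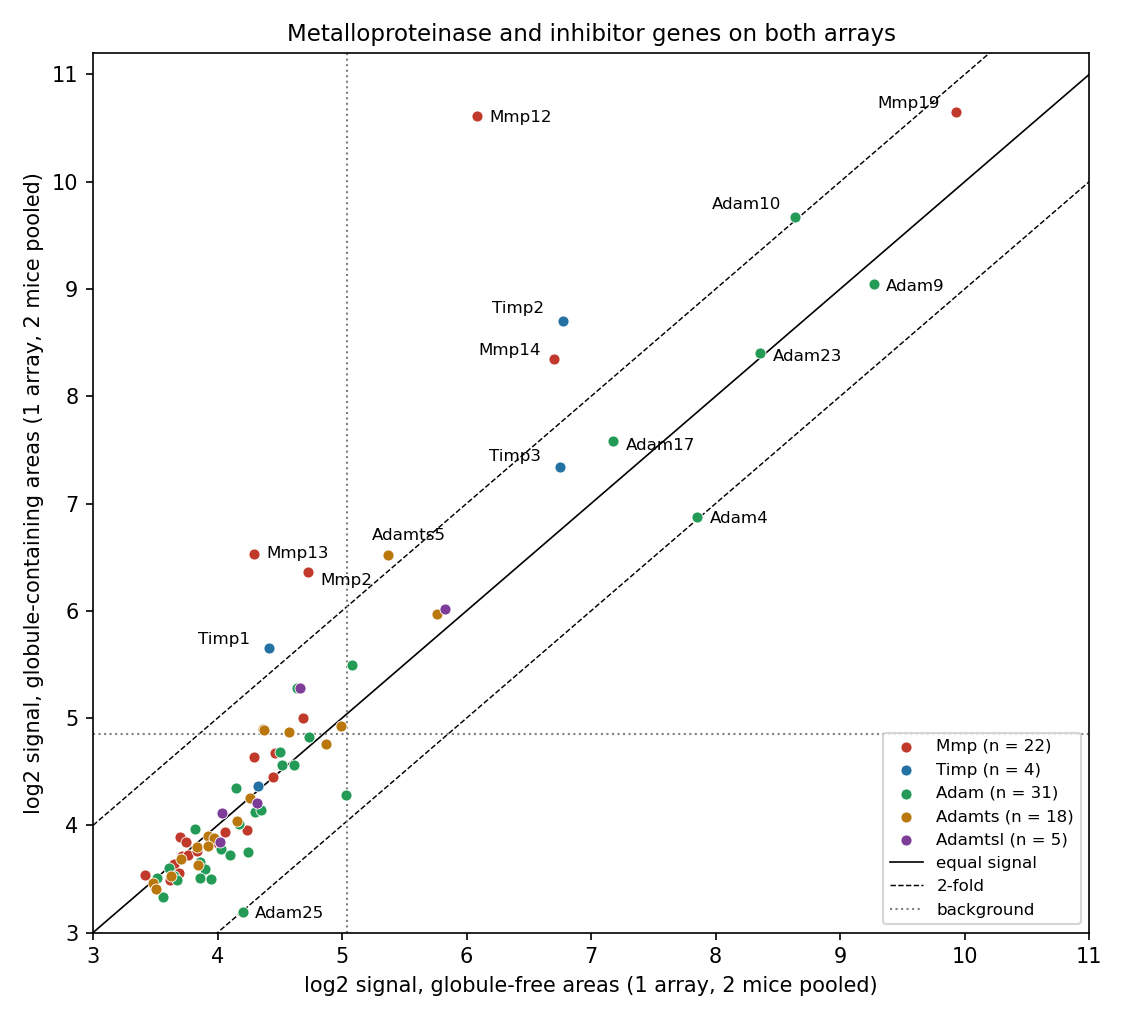
Log2 signal of each of the 80 genes on the globule-containing array (vertical axis) against the globule-free array (horizontal axis), 1 array per group, coloured by family, with lines of equal signal, of 2-fold difference and of background. Most genes sit in the lower left below both background lines, and Mmp12, at 10.61 against 6.08, lies farthest above the line of equal signal.

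The 5 Mmp genes that passed the filter were all higher in globule-containing areas, led by Mmp12, macrophage elastase, which degrades elastin. Mmp13 and Mmp2 passed it only through their globule-containing value, so the filter itself fixed their direction. The 3 above background on both arrays were Mmp12, Mmp14 and Mmp19. Mmp12 reached 10.61 in areas with globules and 6.08 in areas without, 23.1-fold higher. Mmp13, the main interstitial collagenase of rodents, had 6.53 in areas with globules and 4.29 in areas without. Its globule-free signal lay below background, so it was at least 2.81-fold higher. Both genes lie next to each other on chromosome 9.

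Mmp14 encodes a membrane-anchored MMP that cuts collagen at the cell surface and activates the precursor of MMP2. Mmp14 had 8.34 in areas with globules and 6.70 in areas without, 3.13-fold higher. Mmp2, gelatinase A, had 6.36 in areas with globules and 4.73, below background, in areas without, at least 2.51-fold higher. The enzyme and its activator were thus higher on the same array.

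Mmp19, an MMP that cuts basement membrane proteins, had 10.65 in areas with globules and 9.93 in areas without, 1.64-fold higher and so within 2-fold. Mmp7, matrilysin, had 4.999 in areas with globules and 4.68 in areas without. Its higher value stayed below the globule-free background, and no fold is given.

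The other 16 Mmp genes lay at or below background on both arrays, with differences between -0.28 and 0.35. They include Mmp9, gelatinase B, at 3.64 in areas with globules and 3.65 in areas without, and Mmp8, the neutrophil collagenase, at 3.85 in areas with globules and 3.75 in areas without. The stromelysins Mmp3 (3.55 with globules, 3.69 without) and Mmp10 (3.89 with globules, 3.69 without) were there too. Of the gelatinases, Mmp2 therefore had a signal above background and Mmp9 had none on either array. Mmp15 is not analysed here.

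**Figure D2:**
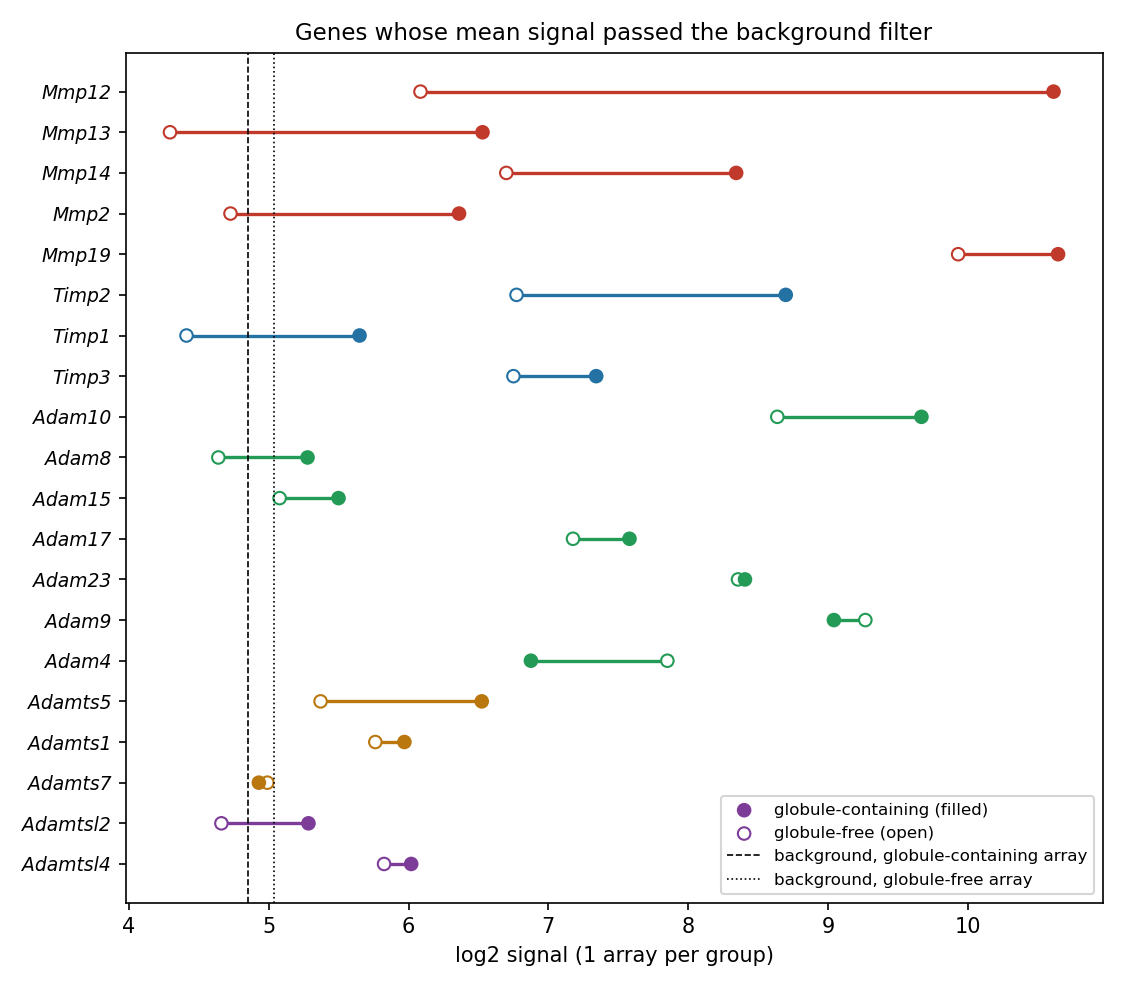
Log2 signal of the 20 genes whose mean passed the background filter, 1 row per gene and grouped by family, with the globule-containing value filled and the globule-free value open. All 5 Mmp and all 3 Timp rows run to the right in globule-containing areas, while Adam9 and Adam4 run the other way and the Adamts7 points, -0.06 apart, nearly coincide. Of the Mmp and Timp rows, Mmp13, Mmp2 and Timp1 passed the filter only through their globule-containing value.

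The chromosome 9 Mmp genes differ among themselves although they are neighbours. RefSeq (GRCm38.p6) lists 10 Mmp genes in a row on this chromosome with no other protein-coding gene between them. Mmp13 and Mmp12 stood at 1 end of the row, at least 2.81-fold and 23.1-fold higher in areas with globules, and the difference of Mmp12 was the largest of all 80 genes. Mmp7, at the other end, was above background on the globule-containing array alone, and the 7 genes between lay at or below background on both arrays.

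**Figure D3:**
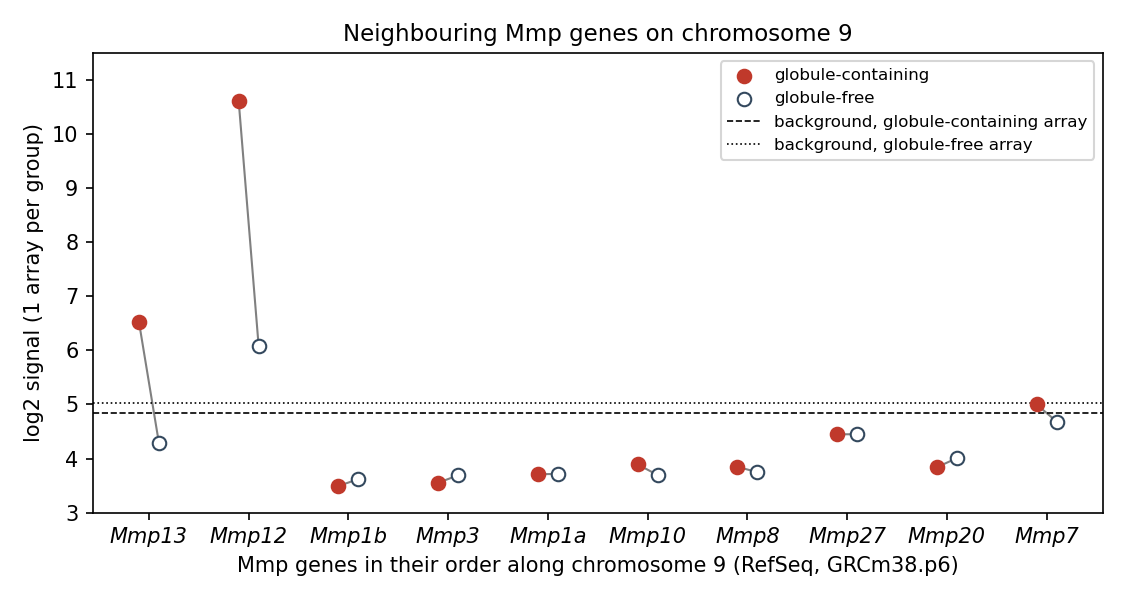
Log2 signal of the 10 neighbouring Mmp genes in their order along chromosome 9, globule-containing (filled) and globule-free (open), with both background levels as lines. Mmp13 and Mmp12 stand above the lines in globule-containing areas, and Mmp1b through Mmp20 stay below them on both arrays.

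AP-1 is a family of FOS and JUN dimers known to drive several MMP genes through a site close to their start. RefSeq start-site windows, from 250 bases before to 50 bases after each gene's start (GRCm38.p6), were available for 50 of the 80 genes. The letters TGACTCA, searched on both strands (so also as TGAGTCA), were found in 1 or more windows of 10 of the 50 genes. By window, they were in 10 of the 55 windows of the 50 genes (18.2%) and in 5.20% of all 32851 windows. On chromosome 9 they were found for 7 of the 10 Mmp genes. These were Mmp13, Mmp12 and Mmp7, above background on at least 1 array, and Mmp1a, Mmp1b, Mmp3 and Mmp10, at background on both. Outside that row 3 of 40 genes had the letters (Adam19, Adam1b and Adam29), and 0 of these 3 were above background. The AP-1 letters were thus found for chromosome 9 neighbours with and without signal. The 3 genes of the row without the letters, Mmp8, Mmp20 and Mmp27, lay at background on both arrays. Among all genes with a window, the letters were found for 3 of 18 above background on at least 1 array. They were found for 7 of 32 at background on both. A match of letters is a description and not a measured site.

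The windows of 4 of the 8 genes past 2-fold are shown to let the AP-1 letters, in capitals, be seen against the rest. That of Mmp13 spans chr9:7272264-7272563 (plus strand), with the letters beginning 35 bases before the start. Mmp12 has 2 windows in the table. The one at its upstream start, chr9:7344147-7344446, held no match, and the one shown, chr9:7347124-7347423 (plus strand), has the letters 44 bases before the start. Mmp14 (chr14:54431348-54431647, plus strand) and Timp2 (chr11:118355362-118355661, minus strand) are shown for contrast, as higher genes whose windows hold no match.
Mmp13: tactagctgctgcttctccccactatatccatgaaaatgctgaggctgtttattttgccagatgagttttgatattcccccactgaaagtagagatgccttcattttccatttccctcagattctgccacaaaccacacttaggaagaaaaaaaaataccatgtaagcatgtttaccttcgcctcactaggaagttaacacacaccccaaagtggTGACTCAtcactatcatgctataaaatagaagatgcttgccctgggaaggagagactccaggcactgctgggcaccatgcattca
Mmp12: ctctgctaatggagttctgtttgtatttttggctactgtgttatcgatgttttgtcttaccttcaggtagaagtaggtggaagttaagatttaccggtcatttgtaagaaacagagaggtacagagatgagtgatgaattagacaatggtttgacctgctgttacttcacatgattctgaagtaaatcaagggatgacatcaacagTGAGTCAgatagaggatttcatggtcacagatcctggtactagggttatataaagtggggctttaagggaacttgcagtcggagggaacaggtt
Mmp14: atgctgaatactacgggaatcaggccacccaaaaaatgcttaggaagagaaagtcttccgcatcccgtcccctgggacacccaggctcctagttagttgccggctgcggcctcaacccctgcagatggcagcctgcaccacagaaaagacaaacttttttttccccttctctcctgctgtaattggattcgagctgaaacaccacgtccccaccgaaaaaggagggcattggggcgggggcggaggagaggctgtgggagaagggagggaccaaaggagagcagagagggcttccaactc
Timp2: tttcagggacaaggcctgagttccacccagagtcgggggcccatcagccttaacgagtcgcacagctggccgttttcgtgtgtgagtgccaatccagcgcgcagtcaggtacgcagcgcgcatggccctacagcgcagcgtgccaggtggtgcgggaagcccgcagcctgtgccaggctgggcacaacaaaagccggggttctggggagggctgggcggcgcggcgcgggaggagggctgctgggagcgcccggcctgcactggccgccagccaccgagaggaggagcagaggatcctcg

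The 3 inhibitor genes above background on at least 1 array were higher too, in the same areas as the enzymes. Of these, Timp1 passed the filter only through its globule-containing value. Timp2, which blocks MMPs and also takes part in the activation of pro-MMP2 by MMP14, had 8.70 in areas with globules and 6.77 in areas without, 3.80-fold higher. Timp1, an inducible inhibitor long used as a marker of liver fibrosis, had 5.65 in globule-containing areas. Its globule-free value of 4.41 lay below background, so it was at least 1.53-fold higher.

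Timp3, which is bound to the matrix and also blocks ADAM17, had 7.34 in areas with globules and 6.75 in areas without, 1.51-fold higher. Timp4 lay below background on both arrays, at 4.36 in areas with globules and 4.32 in areas without. Timp2, Mmp14 and Mmp2, whose proteins form the pro-MMP2 activation complex, were thus 3.80-fold, 3.13-fold and at least 2.51-fold higher.

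Among the ADAM genes, those of the broadly expressed sheddases had signal, and 1 of them, Adam10, was past 2-fold. Adam10, a sheddase of Notch receptors, had 9.67 in areas with globules and 8.64 in areas without, 2.04-fold higher. This value is close to the 2-fold line, and after quantile normalization the log2 difference was 0.96. Adam17, which releases TNF and EGF receptor ligands, had 7.58 in areas with globules and 7.18 in areas without, 1.32-fold higher. Adam9, another membrane sheddase, had 9.04 in areas with globules and 9.27 in areas without, a difference of -0.23. The Adam9 difference was -0.30 after quantile normalization. After median centring it was -0.13, within 0.16, the median gap between probe sets of 1 gene. Adam10 and Adam17 were thus higher, and Adam9 has no clear direction here.

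Adam15 had 5.50 in areas with globules and 5.08 in areas without, 1.34-fold higher. Adam8, an ADAM of leukocytes, had 5.28 in areas with globules and 4.64, below background, in areas without, at least 1.18-fold higher. Adam23, which has no active protease site, had 8.41 in areas with globules and 8.36 in areas without, a difference of 0.05.

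Adam4 was the gene of the 20 with the most negative difference, at 6.88 in areas with globules and 7.85 in areas without, 1.97-fold lower. After quantile normalization its log2 difference was -1.05, past 2-fold. Adam4 belongs to a group of ADAM genes known mainly from the male reproductive tract of the mouse. Of 20 such genes measured, 19 lay at or below background on both arrays, and Adam4 was the only exception. At background were, among others, Adam25, at 3.19 in areas with globules and 4.20 in areas without, Adam21, at 4.68 in areas with globules and 4.50 in areas without, and Adam29, at 3.97 in areas with globules and 3.82 in areas without. Of the 11 other ADAM genes, 6 were above background on at least 1 array.

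Among the ADAMTS genes, 1 of the 3 that passed the filter was past 2-fold. Adamts5, an aggrecanase that cuts aggrecan and versican, had 6.52 in areas with globules and 5.37 in areas without, 2.22-fold higher. Adamts1, another proteoglycan-cutting member, had 5.97 in areas with globules and 5.76 in areas without, 1.16-fold higher. Adamts7 had 4.93 in areas with globules and 4.99 in areas without, the globule-free value below background. Its difference of -0.06 was 0.03 after median centring, so it has no direction here. No ADAMTS gene was at least 2-fold lower.

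Some low values give no fold. Adamts13, the von Willebrand factor protease that stellate cells make in liver, had 4.87 in areas with globules and 4.58 in areas without. Adamts9 and Adamts12 had 4.89 and 4.90 in globule-containing areas and 4.37 and 4.37 in globule-free areas. Each was above background on the globule-containing array alone, but below the globule-free background level. The other 12 Adamts genes lay at or below background on both arrays, Adamts10 among them at 4.76 in areas with globules and 4.87 in areas without.

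Of the ADAMTS-like genes, Adamtsl4, linked to microfibrils, had 6.02 in areas with globules and 5.82 in areas without, a difference of 0.19. After quantile normalization the Adamtsl4 difference was 0.14, within 0.16, the median gap between probe sets of 1 gene. Adamtsl4 thus has no clear direction here. Adamtsl2, which binds fibrillin and regulates TGF-beta availability, had 5.28 in areas with globules and 4.66, below background, in areas without, at least 1.19-fold higher. Adamtsl1, Adamtsl3 and Adamtsl5 lay below background on both arrays. Neither gene with signal reached 2-fold.

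Genes of matrix proteins that metalloproteinases cut, where they passed the filter, mostly had higher RNA signal in areas with globules. Of 25 measured, 19 passed the filter, and 11 were higher by 2-fold or more and 1 lower by as much (median difference 1.40). Among the 11, Col6a3, Thbs1, Tnc and Col1a2 were above background on the globule-containing array alone. With dim values raised to background, 11 were still higher and 1 lower (median 1.33). Of the 25, 12 were above background on both arrays. Over all genes kept, 6.83% were that much higher and 5.55% that much lower, with a median of 0.06. Lum, lumican, a collagen-binding proteoglycan, had 13.24 in areas with globules and 9.32 in areas without, 15.2-fold higher. Dcn, decorin, another such proteoglycan, had 15.22 in areas with globules and 11.80 in areas without, 10.7-fold higher. In contrast Fn1, fibronectin, had 14.81 in areas with globules and 15.82 in areas without, 2.01-fold lower, and Vtn, vitronectin, had 14.34 in areas with globules and 15.20 in areas without, 1.82-fold lower. Hepatocytes secrete both of these into plasma.

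Plasmin, cut from plasminogen by its activators, can activate several MMP precursors. Of 9 genes of the plasminogen and activation list that passed the filter, 0 were higher by 2-fold or more and 2 lower by as much (median difference -0.38), where 6.83% and 5.55% of all genes kept were. Of the 9 differences 4 were positive and 5 negative. Plg, plasminogen, had 15.64 in areas with globules and 17.68 in areas without, 4.11-fold lower. Serpinf2, the plasmin inhibitor alpha-2-antiplasmin, had 14.49 in areas with globules and 16.70 in areas without, 4.61-fold lower. The plasminogen activators Plat and Plau had 5.54 and 5.51 in globule-containing areas and 4.70 and 4.89, both below background, in globule-free areas. They were at least 1.42-fold and at least 1.39-fold higher.

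Of 10 other inhibitors and clearance receptors that passed the filter, 1 was higher by 2-fold or more and 3 lower by as much (median difference -0.10), beside the same 6.83% and 5.55% of all genes kept. The broad plasma protease inhibitors Mug1 and Mug2, murinoglobulins, were 2.72-fold and 3.36-fold lower. Mug1 had 17.44 in areas with globules and 18.89 in areas without, and Mug2 had 15.33 in areas with globules and 17.08 in areas without. Their closely related sequences can share signal. Cd44, a hyaluronan receptor that can hold MMPs at the cell surface, which is in the inhibitor and the shed substrate list, had 7.59 in areas with globules and 6.39 in areas without, 2.31-fold higher. Lrp1, 2.22-fold lower, is in both of these lists too. Itgb1, the integrin beta-1 subunit, had 12.48 in areas with globules and 11.89 in areas without, 1.51-fold higher.

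A list of proteins that ADAM10 and ADAM17 release from the membrane also held Egfr, the receptor of ligands that ADAM17 releases. Of its 20 genes that passed the filter, 5 were higher by 2-fold or more and 3 lower by as much (median difference 0.19). Of all genes kept, 6.83% and 5.55% were, and the median was 0.06. App, the amyloid precursor protein, had 11.81 in areas with globules and 9.52 in areas without, 4.92-fold higher. Cxcl16, a membrane-bound chemokine, had 7.38 in areas with globules and 5.67 in areas without, 3.28-fold higher. On the lower side, Egfr, the EGF receptor, had 13.29 in areas with globules and 16.16 in areas without, 7.32-fold lower, and Met, the hepatocyte growth factor receptor, had 8.77 in areas with globules and 9.97 in areas without, 2.30-fold lower.

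Of the ADAM regulators, a list of iRhoms, tetraspanins and adaptor proteins, 6 passed the filter. Of these, 1 was higher by 2-fold or more and 0 lower by as much (median difference 0.08). The shares over all genes kept were 6.83% and 5.55%, with a median of 0.06. Tspan17, a tetraspanin that binds ADAM10, had 7.76 in areas with globules and 5.89 in areas without, 3.65-fold higher. Tspan14, another, had 7.34 in areas with globules and 6.87 in areas without, 1.38-fold higher. Tspan33 had 4.88 in areas with globules and 5.47 in areas without, 1.51-fold lower, and Sh3pxd2a, a scaffold of matrix-degrading protrusions, differed by -0.14 on the mean of its 2 probe sets and by -0.46 on the brighter.

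Of AP-1 subunits and cytokines that induce MMP genes, 4 of 11 measured passed the filter. Of these, 2 were higher by 2-fold or more and 0 lower by as much (median difference 0.95). Over all genes kept, 6.83% were that much higher and 5.55% that much lower, with a median of 0.06. Jun, an AP-1 subunit, had 8.23 in areas with globules and 6.50 in areas without, 3.33-fold higher. Il1b, interleukin-1 beta, had 6.43 in areas with globules and 5.26 in areas without, 2.25-fold higher. Fos, Fosb, Fosl1, Fosl2, Osm and Il6 lay below background on both arrays. Jund, another AP-1 subunit, was above background on both arrays and differed by 0.01.

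**Figure D4:**
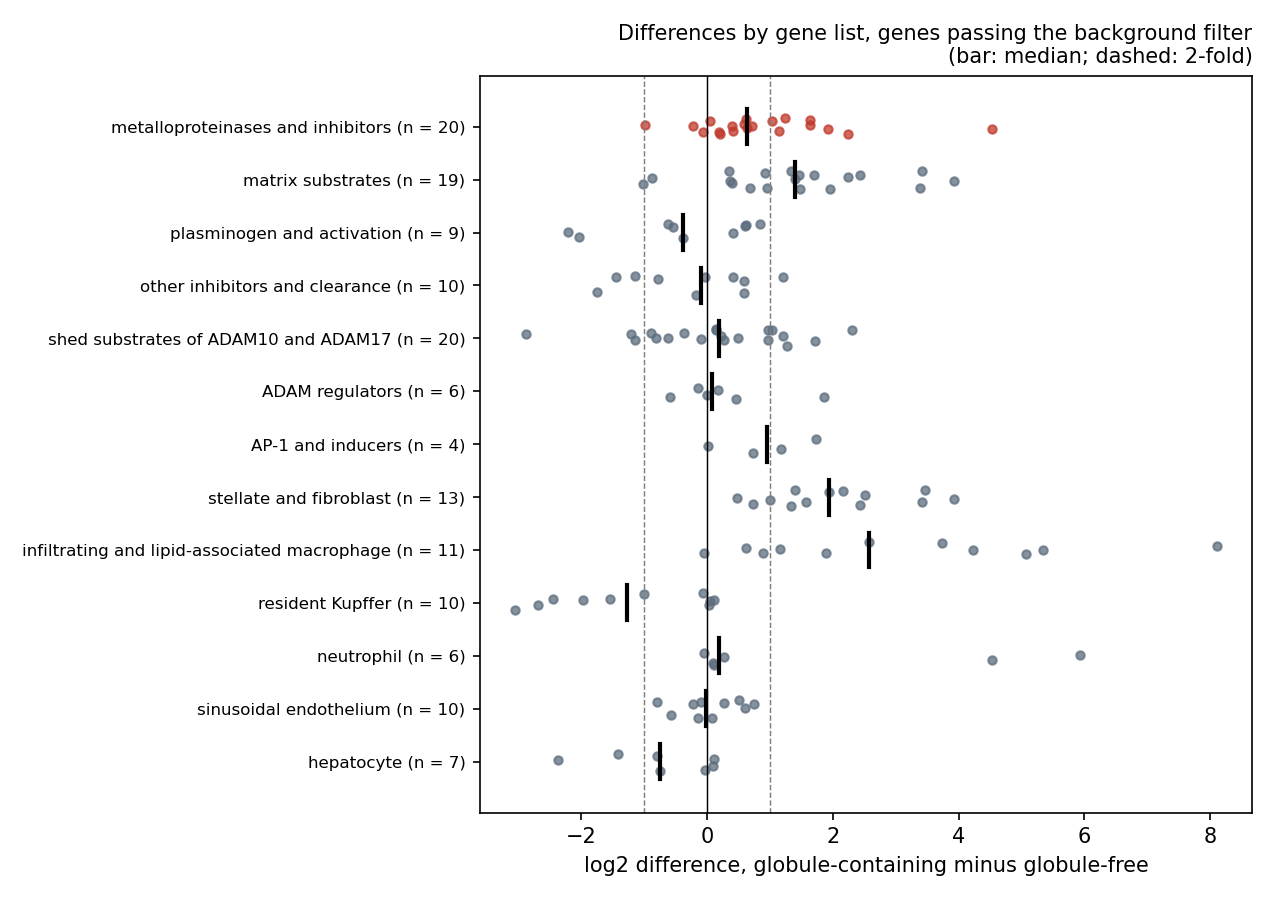
Log2 difference, globule-containing minus globule-free, of each gene that passed the filter, by list, with the median as a bar and 2-fold as dashed lines. The metalloproteinases and inhibitors (median 0.63) lie mostly to the right of 0, as do matrix substrates (1.40) and stellate markers (1.93), while resident Kupffer markers (-1.27) lie to the left.

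Markers of other liver cells differed by cell type, and those listed for stellate cells and for infiltrating and lipid-associated macrophages were mostly higher. Over all genes kept, 6.83% were 2-fold or more higher and 5.55% that much lower, with a median of 0.06. For stellate cells and fibroblasts, 11 of the 13 markers that passed the filter were 2-fold or more higher (median difference 1.93), and the summed linear signal of the list was 52049.8 in areas with globules and 5299.8 in areas without. Without Dcn and Lum, the brightest, it was 4194.6 in areas with globules and 1085.6 in areas without. With dim values raised to background, 10 of the 13 were 2-fold or more higher. Of the 14 measured, Des, desmin, lay at background on both arrays, and 5 of the list are matrix genes named in the substrate list too. For infiltrating and lipid-associated macrophages, 8 of 11 were 2-fold or more higher (median difference 2.58), with summed signals of 324515 in areas with globules and 9889 in areas without. Most of this was Lyz2, a lysozyme, and without it the sums were 69950.4 in areas with globules and 3601.2 in areas without. The 3 markers of this list short of 2-fold were Lgals3, 1.85-fold higher, Trem2, at least 1.20-fold higher, and Ly6c2, which differed by -0.05. For resident Kupffer cells, 0 of 10 were higher by 2-fold or more and 5 lower by as much (median difference -1.27), with summed signals of 2124 in areas with globules and 7343 in areas without. Of the other 5, Slc40a1 differed by -0.99, and Adgre1, C1qa, C1qb and Folr2 by 0.12, 0.05, 0.04 and -0.06. Cd163 and Xcr1, the latter on the list but not specific to Kupffer cells, lay at background on both arrays.

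Neutrophil markers had a median of 0.19 over 6 genes. Of these 2, S100a8 and S100a9, were at least 2-fold higher, where 6.83% of all genes kept were. The summed signal of the list was 4794 in areas with globules and 370.5 in areas without. Without S100a8 and S100a9 it was 273.1 in areas with globules and 245.0 in areas without, while Mpo, Ngp and Mmp8 lay at background on both arrays. Sinusoidal endothelial markers were within 2-fold in 10 of 10, with a median of -0.01 and summed signals of 3501 in areas with globules and 3036 in areas without. Without Clec4g, the brightest, the sums were 1607 in areas with globules and 1796 in areas without. Bile duct markers had 0 of 3 at least 2-fold apart, with Cftr and Krt7 at background on both arrays. Of 8 lymphocyte markers 7 lay at background on both arrays. Of the hepatocyte markers 7 of 7 were above background on both arrays, and 2, Cps1 and Tat, were at least 2-fold lower, where 5.55% of all genes kept were. The median over the 7 was -0.75, with 5 differences negative and 2 positive. Alb, which differed by 0.10, lay within 0.2 of the highest value of each array. In captured areas, more cells of a type and more RNA per cell cannot be told apart. The part of these cell types in the differences of the metalloproteinases and inhibitors was not tested.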

How the data were processed

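RNA from laser-captured areas was measured on 2 arrays, 1 per group. The deposited table holds log2 signals for 72688 probe sets, with medians of 4.40 (globule-containing) and 4.49 (globule-free). The log2 scale was read from the values. The submitters' processing notes name the Transcriptome Analysis Console. How background was corrected and arrays were normalized, and on which build, no source used here states. Per the labels' protocols, RNA was isolated with a Pico Pure kit and amplified with the NuGen Ovation WTA System V2.

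From these values, probe sets naming several symbols (2146) or none listed here (39938) were left out, and probe sets of 1 gene were averaged. Of the 80 genes, 79 matched a RefSeq gene by Entrez ID. Where 1 array lay at or below background, the dim value was raised to background and the fold written as "at least". Probe sets of different genes are not compared in level, and a list's summed linear signal, led by its brightest probe sets, is compared only between arrays. Precision is limited by the number of arrays. Members, lists and background were chosen with earlier results of these data known. Named genes are the Timp genes, members at least 2-fold apart, preset genes such as Mmp9, Adam17 and Adamts13, the 3 members on each side of the filter and the 2 extremes of each list. Other genes given with values (Mmp3, Mmp8, Mmp10, Adam23, Adamts9, Adamts12, Lrp1, and those of the AP-1 and marker lists) were chosen after their values were seen. The counting was tested on simulated data, in which the shifted genes lay well above the filter and were moved well past 2-fold. No genes near the filter were shifted, and no shift was close to 2-fold. Python 3.11.15, numpy 2.4.6, pandas 2.3.3 and matplotlib 3.10.9 were used.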

Additional observations from a re-analysis of the deposited data

How the results depend on the processing

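With background at the 99th percentile of the receptor probe sets, 15 genes were above it on at least 1 array in place of 24. Of the 13 members then kept, in place of 20, 5 in place of 8 were at least 2-fold higher: Mmp12, Mmp14, Timp2, Adamts5 and Adam10. Among all genes, 813 of the 10168 kept were that much higher, in place of 950 of 13903. Mmp13, Mmp2 and Timp1 were lost because fewer genes passed the higher filter. In place of 0, the count at least 2-fold lower was 1 after quantile normalization (Adam4), 1 at a 1.5-fold threshold (Adam4) and 1 with no filter on the mean (Adam25, at background on both arrays). Among all genes, 948 of 13874, 1727 of 13903 and 866 of 30145 were that much lower, in the same order. At the 1.5-fold threshold 12 of the 20 members were higher, where 2333 of the 13903 genes kept were. The median over members was -0.0204 with no filter. With dim values raised to background, a setting added for counts after seeing the data, 7 were at least 2-fold higher, without Timp1, where 6.46% of all genes were. Under quantile normalization 7 of the 19 members kept were at least 2-fold higher, without Adam10, where 824 of all 13874 genes kept were. The median over all genes kept was 0.057 as reported, -0.003 after quantile normalization and 0.15 after median centring. The other counts and medians, with background from olfactory receptors alone, without receptor pseudogenes (added after seeing the data), with the brightest probe set, alias probe sets or a filter at the median of probe sets naming 1 gene, stayed within 1.5 times or within 0.16, the median gap between probe sets of 1 gene. Of the named genes 24 were at least 2-fold apart, and 22 still were with dim values raised to background, Timp1 and Adam25 not. Of these 22, 0 changed sign under the alternatives run. No paired analysis was possible because each group is 1 array.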

Other observations

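Besides the 80 genes, 3 probe sets name a metalloproteinase together with another symbol and were left out. That of Mapkapk5 and Adam1a read 7.19 (log2) in areas with globules and 7.03 in areas without, a difference of 0.16. That of Adam12 and 5830403F22Rik, at 4.13 in areas with globules and 4.14 in areas without, and that of Gm5347 and Adam34, at 3.56 in areas with globules and 3.35 in areas without, lay below background on both arrays.

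The letters TATAAA, on the strand of the gene, stood in a start-site window of 12 of the 50 genes with a window. By window, they stood in 12 of the 55 windows of the 50 genes (21.8%) and in 8.32% of all windows. On chromosome 9 they stood in windows of 8 of the 10 neighbouring Mmp genes. These 8 include Mmp12 and Mmp13 and also Mmp3, Mmp10, Mmp1a and Mmp1b, which lay at background on both arrays.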
